A study of Mus musculus with 16 samples.

Results

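Integrins are the receptors by which cells hold on to the extracellular matrix, and 10 subunits borne by the resident cells of the heart were followed here in mouse ventricular myocardium. They were 7 α subunits (Itga1, Itga5, Itga6, Itga7, Itga8, Itga9 and Itgav) and 3 β subunits (Itgb1, Itgb3 and Itgb5). Members were chosen by gene symbol. Of the probe sets annotated to exactly 1 of these symbols, the one with the highest mean log2 value over the 16 arrays stood for each gene. All 10 were on the array, among 18193 genes tested. Those means ran from 5.36 for Itgb3 and 6.56 for Itga8 to 9.97 for Itgb1. Levels of different probe sets are not comparable, so groups are compared below within a probe set or within the mean of a fixed list. Only sizes of change, as in ranks, are set side by side for different genes. The median over all probe sets is used as a rough mark of low signal.

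Mice lacking the adenosine 2A receptor (A2AR) and mice carrying it were given lipopolysaccharide (LPS), the bacterial endotoxin, or saline. The 4 groups were A2AR knockout (KO) mice given LPS, KO mice given saline, wild-type (WT) littermates given LPS and WT littermates given saline, with 4 arrays in each. All were 14-week-old males on a CD1 background, LPS was injected once into the peritoneum at 20 mg/kg, and ventricles were taken at 24 h. The labels name no cell type or promoter to which the receptor's deletion is restricted, and the genotype of each array rests on its label. Values are log2 probe set summaries, so a difference of 1 is a doubling.

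An integrin works as a pair of 1 α and 1 β chain. The α chain largely sets which matrix protein is bound, and the short tail of the β chain recruits talin, kindlins and other adaptors that join the receptor to actin. α5, αv and α8 recognise the RGD motif of fibronectin, vitronectin and related proteins, α6 and α7 bind laminins, α1 binds collagens, and α9 binds tenascin-C, EMILIN1 and other ligands. β1 partners most of these α chains, whereas β3 and β5 pair with αv, and β3 also with αIIb on platelets. In heart muscle α7β1 and its laminin ligands anchor the myocyte to its basement membrane, while α8β1 is known from smooth muscle and other contractile or matrix-producing cells.

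The RefSeq promoter table (build GRCm38.p6) held a window for 7 of the 10 genes. In 5 of these the window lay before the gene's outermost annotated start, in the others inside the gene. The stretches before 4 genes are shown because 3 of them (Itga1, Itga5 and Itgb1) rose after LPS in KO hearts and 1 (Itga8) was far lower in both genotypes. Each is written 5′ to 3′ on the gene's strand and holds up to 250 bases, ending at the start site or, for Itga8, at the outermost annotated start, which leaves 209 bases. Capitals mark matches to the motifs searched.
Itga8, GRCm38.p6, chr2:12301986-12302194, minus strand: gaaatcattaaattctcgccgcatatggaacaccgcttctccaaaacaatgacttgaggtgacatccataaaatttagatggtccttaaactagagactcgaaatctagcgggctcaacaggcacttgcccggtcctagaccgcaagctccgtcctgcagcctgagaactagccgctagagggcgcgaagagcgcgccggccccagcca
Itga5, GRCm38.p6, chr15:103366792-103367041, minus strand: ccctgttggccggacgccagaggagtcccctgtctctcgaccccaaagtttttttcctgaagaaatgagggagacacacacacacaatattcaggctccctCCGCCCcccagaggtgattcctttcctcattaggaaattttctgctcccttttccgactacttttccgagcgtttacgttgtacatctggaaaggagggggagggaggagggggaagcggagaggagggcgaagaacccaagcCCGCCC
Itga1, GRCm38.p6, chr13:115101965-115102214, minus strand: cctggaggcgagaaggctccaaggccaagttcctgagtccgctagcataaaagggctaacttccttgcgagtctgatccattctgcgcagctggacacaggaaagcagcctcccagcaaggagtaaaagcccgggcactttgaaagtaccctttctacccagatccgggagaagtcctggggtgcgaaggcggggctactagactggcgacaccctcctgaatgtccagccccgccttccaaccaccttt
Itgb1, GRCm38.p6, chr8:128685404-128685653, plus strand: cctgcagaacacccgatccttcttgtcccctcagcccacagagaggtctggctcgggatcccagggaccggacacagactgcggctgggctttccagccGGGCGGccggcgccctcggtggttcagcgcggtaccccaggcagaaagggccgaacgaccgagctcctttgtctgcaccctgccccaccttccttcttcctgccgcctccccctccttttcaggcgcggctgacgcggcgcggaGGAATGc
The motifs, searched on both strands of the 250-base windows, were the AP-1 site TGACTCA, the GC box GGGCGG, the MCAT element CATTCC, and by name the κB and CArG consensus sequences. The 2 matches in Itga5, both read on the opposite strand, and the first in Itgb1 are GC boxes, which 32.7% of all 32851 windows held. The match at the end of the Itgb1 window is an MCAT element on the opposite strand (12.6% of windows), and no match overlapped another. None of the searched motifs was in the Itga8 or Itga1 window, and AP-1, κB and CArG matches, held by 4.46%, 3.90% and 1.47% of windows, were in none of the 4. A match describes letters only.

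Arrays differed in ways the groups do not give. Cardiomyocyte markers were high throughout (means of 7 genes 13.30 to 13.94), none of them under the median over all probe sets of 4.64. Skeletal muscle markers averaged 7.98 and 9.10 in WT saline arrays 1 and 4, against 5.83 to 6.30 in the other 14 arrays. WT LPS array 4 lay farthest from its group, with an SD over genes of 0.49 from the mean of the other 3 arrays. The other 15 arrays had 0.17 to 0.42, with KO LPS array 2 the highest of them. Where leaving out WT LPS array 4, or WT saline arrays 1 and 4, ended a call of a subunit or moved a count by more than 1.5 times, the value without them is given.

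LPS moved most of these integrins, in both directions. In KO hearts, limma called 7 of the 10 at an adjusted p under 0.05 over all genes tested, where 26.1% of all genes were called. Of these, 5 were higher and 2 lower, beside 11.4% and 14.7% of all genes. In WT hearts limma also called 7, where 20.9% of all genes were called, and 4 were higher and 3 lower, beside 9.28% and 11.6% of all genes. Itga8 had been singled out with its fall already known. Without it 6 of 9 were called in each genotype, 5 higher and 1 lower in KO hearts and 4 higher and 2 lower in WT hearts. The median log2 change of the 10, Itga8 included, was 0.36 in KO and 0.32 in WT hearts, beside -0.02 and -0.00 over all genes tested. In each genotype 7 of the 10, Itga8 among them, had every LPS array on one side of every saline array. Over all genes this held for 28.5% in KO and 22.8% in WT hearts. Without WT saline arrays 1 and 4, 4 of the 10, Itga8 among them, were called in WT hearts. In that fit 2061 genes were called in all in place of 3798.

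**Figure D1:**
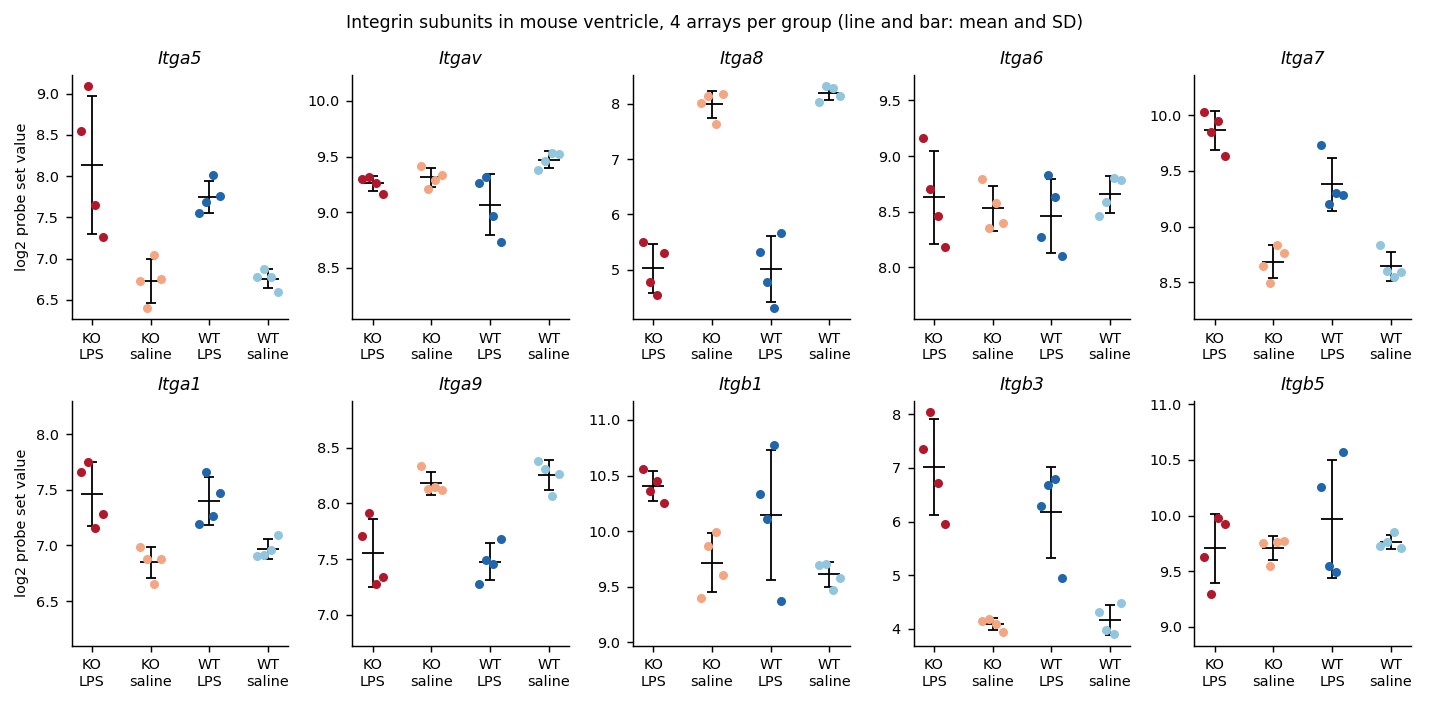
Log2 probe set value (vertical axis, its own range in each panel) of the 10 integrin subunits in every array, with groups on the horizontal axis, points for arrays and black bars for the mean and SD of 4 arrays. Itga8 stands at 4.31 to 5.66 in LPS arrays against 7.64 to 8.32 in saline arrays, and Itgb3 at 4.95 to 8.04 against 3.90 to 4.49.

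Among the RGD-binding α chains, Itga8 was far lower after LPS. In KO hearts Itga8 read 5.50, 4.78, 4.55 and 5.30 after LPS, against 8.02, 8.13, 7.64 and 8.17 after saline. In WT hearts it read 5.32, 4.79, 4.31 and 5.66 after LPS, against 8.04, 8.32, 8.28 and 8.13 after saline. Every LPS array lay more than 1 unit under every saline array, and no gap parted the genotypes. The log2 changes were -2.96 ± 0.25 in KO hearts (7.77-fold lower after LPS) and -3.17 ± 0.25 in WT hearts (9.01-fold lower), given with limma standard errors and, because of how Itga8 was chosen, with no p. By size it ranked number 15 among the 2669 genes called lower in KO hearts and number 4 among the 2109 called lower in WT hearts. LPS group means were 5.03 ± 0.44 in KO and 5.02 ± 0.59 in WT hearts (SD, n = 4 each), near the median over all probe sets, so background bears on the size of the change. Without WT LPS array 4 the WT change was -3.38.

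The second Itga8 probe set was lower after LPS too, with no overlap of LPS and saline arrays. It read 3.36 to 3.74 after LPS against 5.13 to 5.69 after saline in KO hearts, and 3.26 to 3.54 after LPS against 5.02 to 5.85 after saline in WT hearts. Its log2 changes were -1.79 ± 0.16 in KO and -2.02 ± 0.16 in WT hearts. Its LPS values lie under the median over all probe sets, so background bears on these sizes as well.

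Markers of smooth muscle and of fibroblasts were lower as well. Smooth muscle and pericyte markers were called lower for 7 of 9 in each genotype, beside 14.7% of all genes in KO and 11.6% in WT hearts. The count of 7 held without WT LPS array 4 and without WT saline arrays 1 and 4. The mean of these markers per array ran from 8.41 to 8.65 after LPS against 9.19 to 9.59 after saline in KO hearts. In WT hearts it ran from 7.98 to 8.74 against 9.31 to 9.62. Myh11, smooth muscle myosin, fell (-1.53 ± 0.20 in KO and -1.80 ± 0.20 in WT hearts), as did Acta2, smooth muscle actin (-1.11 ± 0.18 and -1.65 ± 0.18), and Rgs5, of pericytes (-0.80 ± 0.14 and -0.98 ± 0.14). The pericyte markers Pdgfrb (0.16 ± 0.18 and -0.12 ± 0.18) and Cspg4 (0.42 ± 0.20 and 0.07 ± 0.20) were the 2 not called in either genotype. Fibroblast markers were called lower for 4 of 7 in each genotype, with means of 8.99 to 9.80 after LPS against 10.41 to 10.55 after saline in KO hearts and 9.12 to 10.28 against 10.47 to 10.63 in WT hearts. Of their defining genes, the matrix proteoglycan gene Lum fell (-2.24 ± 0.27 in KO and -1.78 ± 0.27 in WT hearts). The growth factor receptor gene Pdgfra (-0.12 ± 0.14 and -0.29 ± 0.14) and the decorin gene Dcn (-0.05 ± 0.09 and 0.18 ± 0.09) were not called. No marker of either list was under the median over all probe sets in any group. The part of these cells in the change of Itga8 was not tested, and in bulk tissue fewer cells of a type and less RNA per cell cannot be told apart.

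**Figure D2:**
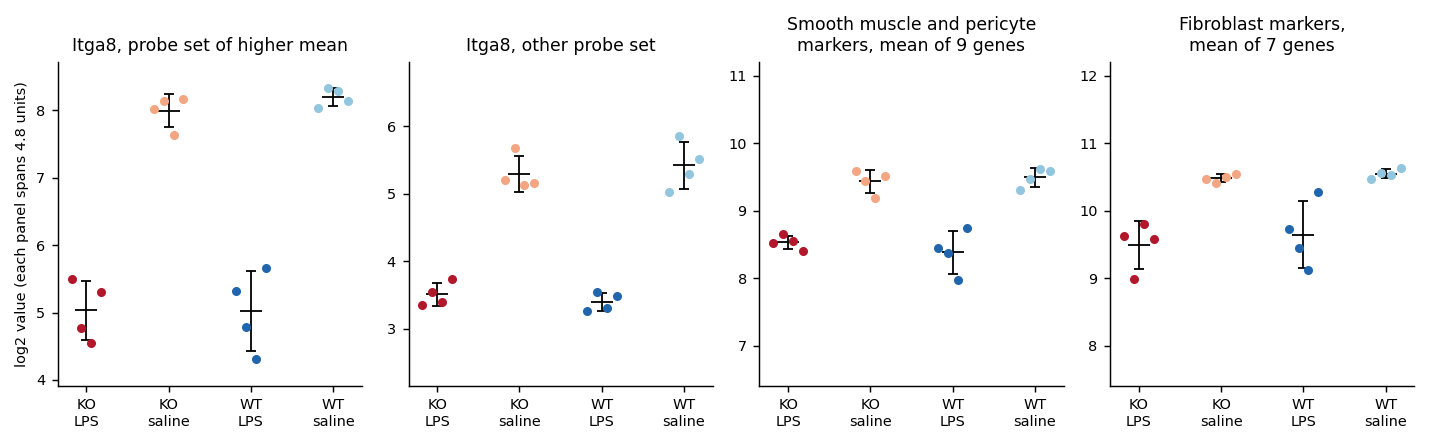
Log2 values by array (points) with mean and SD (black bars) for the 2 Itga8 probe sets and for the mean of 9 smooth muscle and pericyte markers and of 7 fibroblast markers, each panel spanning the same number of log2 units. LPS arrays lie under saline arrays of the same genotype in every panel, with the widest gap for the Itga8 probe set of higher mean.

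Itga5, which forms the classical fibronectin receptor with β1, went the other way. In KO hearts Itga5 read 8.55, 9.10, 7.66 and 7.26 after LPS, against 6.73, 6.40, 7.04 and 6.76 after saline. In WT hearts it read 7.55, 7.69, 8.01 and 7.76 after LPS, against 6.78, 6.88, 6.78 and 6.59 after saline. LPS arrays were all above saline arrays in each genotype, and the KO LPS arrays were the most scattered, 2 above and 2 under 8. Itga5 rose by 1.41 ± 0.28 in KO hearts (2.65-fold, limma adjusted p = 0.00132) and by 0.99 ± 0.28 in WT hearts (1.99-fold, limma adjusted p = 0.018). The WT call was lost without WT saline arrays 1 and 4 (0.92, limma adjusted p = 0.135), and also without WT saline array 4 alone (0.0523) or WT LPS array 3 (0.0569). The other 3 Itga5 probe sets, of mean 4.22 to 4.70, had log2 changes of 0.41 to 0.69 in KO and 0.36 to 0.48 in WT hearts.

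Itgav, the partner of β3 and β5, moved little. In KO hearts it read 9.30, 9.31, 9.26 and 9.17 after LPS, against 9.42, 9.21, 9.29 and 9.34 after saline, ranges that overlap (-0.05 ± 0.11, limma adjusted p = 0.794). In WT hearts it read 9.26, 9.31, 8.97 and 8.73 after LPS, against 9.38, 9.46, 9.53 and 9.52 after saline. The 2 WT ranges part by a narrow margin and Itgav fell by 0.41 ± 0.11 (limma adjusted p = 0.0167). WT LPS array 4 was the lowest, and without it the WT change was -0.29 (limma adjusted p = 0.0289). The call was lost without WT LPS array 3 (0.0519), without WT saline arrays 1 and 4 (0.086), in a fit of the WT arrays alone (0.0661) and with the mean of all Itgav probe sets (-0.12, limma adjusted p = 0.319). The 4 other Itgav probe sets all had means of 4.26 or less and none was called in WT hearts, while 1 of them, of mean 3.56, was called lower in KO hearts (-0.39 ± 0.12).

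The laminin receptors split. Itga7, the chief laminin-binding α chain of muscle, rose in both genotypes and was among the most even responses. In KO hearts Itga7 read 10.03, 9.85, 9.95 and 9.63 after LPS, against 8.64, 8.49, 8.84 and 8.76 after saline. WT hearts gave 9.73, 9.20, 9.30 and 9.28 after LPS, against 8.83, 8.60, 8.55 and 8.60 after saline. All LPS arrays exceeded all saline arrays of both genotypes. It rose by 1.18 ± 0.13 in KO hearts (2.27-fold, limma adjusted p = 3.89e-06) and by 0.74 ± 0.13 in WT hearts (1.67-fold, limma adjusted p = 0.00049), on the only probe set it has. The cardiomyocyte markers beside it did not rise, at means of 13.30 to 13.94 per array over all groups. Whether a rise could show at so high a signal was not tested. Of 7, 0 were called higher in either genotype, beside 11.4% of all genes in KO and 9.28% in WT hearts. In KO hearts 4 fell and in WT hearts 3, beside 14.7% and 11.6% of all genes.

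Itga6, whose laminin receptors sit on endothelial and other cells, showed no called change. Itga6 ran from 8.18 to 9.16 after LPS against 8.35 to 8.79 after saline in KO hearts, and from 8.10 to 8.83 after LPS against 8.46 to 8.80 after saline in WT hearts. The ranges overlapped, with log2 changes of 0.10 ± 0.19 (limma adjusted p = 0.768) and -0.20 ± 0.19 (0.55). Its second probe set, of nearly the same mean, gave 0.24 ± 0.25 and -0.25 ± 0.25. Endothelial markers were called lower for 3 of 7 in KO and 2 of 7 in WT hearts, beside 14.7% and 11.6% of all genes. None of these markers was under the median over all probe sets. Their mean ran from 8.04 to 8.32 after LPS against 8.44 to 8.91 after saline in KO hearts, and from 7.93 to 8.82 against 8.42 to 8.81 in WT hearts. Of their defining genes, the VEGF receptor gene Kdr fell (-0.71 ± 0.24 in KO and -0.75 ± 0.24 in WT hearts), and the junction genes Pecam1 and Cdh5 were not called in either. Without WT saline arrays 1 and 4, 2 endothelial markers were called lower in KO and 0 in WT hearts, where 4191 and 2061 of 18193 genes were called. In that fit the medians of these markers were -0.45 in KO and -0.51 in WT hearts, against -0.45 and -0.39 with all arrays. Without WT LPS array 4, 4 were called lower in each genotype, in a fit whose share over all genes is not given here.

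Itga9 fell and Itga1 rose. In KO hearts Itga9 read 7.71, 7.92, 7.27 and 7.34 after LPS, against 8.33, 8.13, 8.14 and 8.12 after saline. WT hearts gave 7.28, 7.50, 7.45 and 7.68 after LPS, against 8.38, 8.31, 8.06 and 8.26 after saline. No LPS array reached a saline array. Itga9 fell in both genotypes, with log2 changes of -0.62 ± 0.14 in KO (1.54-fold lower, limma adjusted p = 0.003) and -0.78 ± 0.14 in WT hearts (1.71-fold lower, limma adjusted p = 0.00063). Its other 2 probe sets, of mean 3.86 and 5.23, were not called in either genotype, and with the mean of all 3 probe sets the WT call was lost (-0.26, limma adjusted p = 0.0708).

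Itga1, a collagen receptor chain, read 7.66, 7.75, 7.15 and 7.28 after LPS in KO hearts, against 6.98, 6.88, 6.65 and 6.88 after saline. In WT hearts Itga1 read 7.19, 7.66, 7.27 and 7.47 after LPS, against 6.90, 6.91, 6.96 and 7.10 after saline. The groups were parted in both genotypes, by a narrow margin. It rose by 0.61 ± 0.14 in KO (1.53-fold, limma adjusted p = 0.00385) and by 0.43 ± 0.14 in WT hearts (1.35-fold, limma adjusted p = 0.0379). The WT call was lost without any 1 of 5 arrays (WT saline 1, 2 or 3, WT LPS 2 or 4), where the largest adjusted p was 0.13, and without WT saline arrays 1 and 4 together (0.131). The second Itga1 probe set, of mean 6.61, did not show the rise, with 0.09 ± 0.26 in KO and -0.14 ± 0.26 in WT hearts. With the mean of both, neither genotype was called (0.35, limma adjusted p = 0.167 in KO, and 0.15, limma adjusted p = 0.645 in WT hearts).

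Of the β chains, Itgb3 rose most. Itgb3 encodes the chain that forms the vitronectin receptor with αv. In KO hearts it read 7.35, 8.04, 6.72 and 5.96 after LPS, against 4.14, 4.19, 4.08 and 3.94 after saline. WT hearts gave 6.28, 6.68, 6.79 and 4.95 after LPS, against 4.31, 3.98, 3.90 and 4.49 after saline. The saline values lay under the median over all probe sets, and the LPS values spread over 2 units in KO hearts and nearly as many in WT hearts. Itgb3 rose by 2.93 ± 0.39 in KO hearts (7.60-fold, limma adjusted p = 3.28e-05) and by 2.01 ± 0.39 in WT hearts (4.02-fold, limma adjusted p = 0.00118). Because the saline values sit near background, these sizes depend on it. WT LPS array 4 was the lowest of its group, and without it the WT rise was 2.42. By size Itgb3 ranked number 96 of 2075 genes called higher in KO and number 180 of 1689 in WT hearts. Its second probe set rose too, by 0.67 ± 0.13 in KO and 0.50 ± 0.13 in WT hearts.

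Blood cells also carry integrins, among them β3 on platelets. None of the 6 platelet markers was called higher in either genotype, beside 11.4% of all genes in KO and 9.28% in WT hearts. Of the 6, 1 in the KO saline group and 2 in each other group were under the median over all probe sets. Background therefore bears on this list. The mean of the 6 was 5.29 to 5.72 after LPS against 5.65 to 5.82 after saline in KO hearts. In WT hearts it was 5.36 to 5.63 against 5.37 to 5.57. Itga2b, the platelet partner of Itgb3, read 6.28 to 6.52 after LPS against 6.34 to 6.67 after saline in KO hearts and 6.22 to 6.70 against 6.27 to 6.42 in WT hearts, with log2 changes of -0.09 ± 0.11 and 0.08 ± 0.11. Ppbp, a platelet chemokine, fell in KO hearts by 1.04 ± 0.25, and the defining Pf4 (0.17 ± 0.22 and 0.19 ± 0.22) and Gp9 (0.11 ± 0.11 and 0.18 ± 0.11) were not called. Neutrophil markers rose for 4 of 5 in each genotype, with means of 6.85 to 7.68 after LPS against 3.99 to 4.19 after saline in KO hearts and 6.01 to 7.09 against 3.87 to 4.14 in WT hearts. All 5 were under the median over all probe sets in both saline groups. The defining granule genes S100a8 and S100a9 rose by 5.57 ± 0.17 and 4.99 ± 0.20 in KO hearts and by 4.84 ± 0.17 and 4.86 ± 0.20 in WT hearts. Of 7 macrophage and monocyte markers, 1 rose and 3 fell in KO hearts, where 14.7% of all genes were called lower. In WT hearts 1 rose and 2 fell, where 11.6% of all genes were called lower. Without WT saline arrays 1 and 4, 1 fell in WT hearts, where 2061 of 18193 genes were called. The mean of the 7 was 7.19 to 8.02 after LPS against 7.98 to 8.04 after saline in KO hearts. In WT hearts it was 7.41 to 9.21 against 7.98 to 8.15. WT LPS array 4 had the 9.21, and the other 3 WT LPS arrays had 7.41 to 8.16. Of the defining macrophage genes, Csf1r, a growth factor receptor, fell (-1.35 ± 0.27 in KO and -0.90 ± 0.27 in WT hearts), and Cd68 and Adgre1 were not called. The part of platelets, neutrophils and macrophages in the integrin changes was not tested.

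Itgb1, the common β partner, was higher after LPS, with a call in KO hearts alone. In KO hearts Itgb1 read 10.56, 10.36, 10.46 and 10.25 after LPS, against 9.40, 9.87, 9.99 and 9.61 after saline. WT hearts gave 10.34, 10.11, 10.77 and 9.37 after LPS, against 9.70, 9.71, 9.47 and 9.58 after saline. WT LPS array 4 lay under every saline array, while the other 3 WT LPS arrays lay above all of them. Itgb1 rose by 0.69 ± 0.21 in KO hearts (1.61-fold, limma adjusted p = 0.022), a call lost without KO saline array 1 (0.0727) or 4 (0.058) or KO LPS array 1 (0.0636). In WT hearts the log2 change was 0.53 ± 0.21 (limma adjusted p = 0.0862), and without WT LPS array 4 it was 0.79 (limma adjusted p = 0.000855). With array weights it was 0.68 (limma adjusted p = 0.00215), and with the probe set of largest variance 0.72 (limma adjusted p = 0.0463). The difference between the 2 responses was 0.16 ± 0.30 (95% interval -0.47 to 0.78). In the 2 other probe sets of high signal WT LPS array 4 was again the lowest of its group, at 8.96 and 8.69 against 9.82 to 10.16 and 9.48 to 10.03 in the other WT LPS arrays. The remaining 3 Itgb1 probe sets had means of 2.82 to 2.98 and did not move.

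Itgb5, the other β partner of αv, had no called change but divided the WT LPS hearts. In WT hearts Itgb5 read 10.25, 9.54, 9.50 and 10.57 after LPS, against 9.72, 9.76, 9.85 and 9.71 after saline. Arrays 1 and 4 were above all WT saline arrays and arrays 2 and 3 under them, and the same 2 arrays were highest in all 4 Itgb5 probe sets. In KO hearts it read 9.63, 9.29, 9.97 and 9.92 after LPS, against 9.75, 9.54, 9.76 and 9.78 after saline, with 1 LPS array under the saline range, 1 inside it and 2 above it. The log2 changes were -0.00 ± 0.20 in KO (limma adjusted p = 0.993) and 0.20 ± 0.20 in WT hearts (limma adjusted p = 0.552), and 0.00 in WT hearts without WT LPS array 4.

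**Figure D3:**
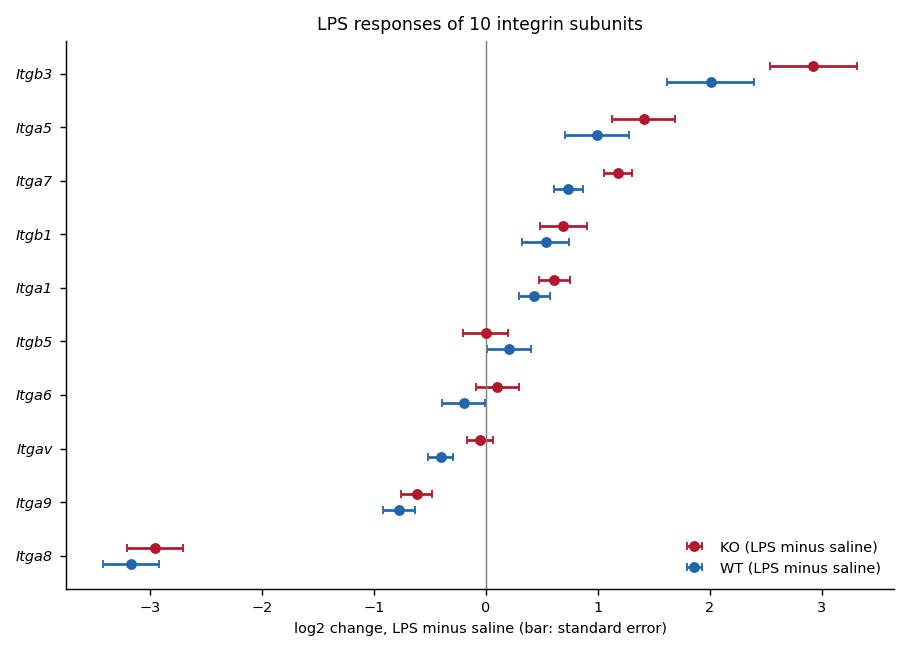
Log2 change of each integrin subunit, LPS minus saline (horizontal axis), in KO hearts (red, upper of each pair) and WT hearts (blue), with limma standard errors as bars and genes ordered by the WT change. Itga8 at -2.96 and -3.17 and Itgb3 at 2.93 and 2.01 lie at the ends.

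LPS hearts differed from each other more than saline hearts did. The SD over 4 arrays was larger after LPS than after saline for 8 of the 10 subunits in KO hearts and for 10 of 10 in WT hearts, with SDs of 0.07 to 0.89 after LPS and 0.06 to 0.28 after saline. KO LPS arrays 1 and 2 were the highest 2 of their group for 6 subunits (Itga1, Itga5, Itga6, Itga9, Itgav and Itgb3), a pattern picked out after the values had been seen. For Itgb5 the same 2 arrays were the lowest.

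The array carries 21 further probe sets for these genes, all but Itga7 having at least 1. Counting both genotypes, 7 calls among them matched a call of the probe set used in direction. These were calls for Itga5, Itga8, Itgb1 and Itgb3. For Itga1, Itga9 and Itgav no other probe set had a call that matched one of the probe set used.

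**Figure D4:**
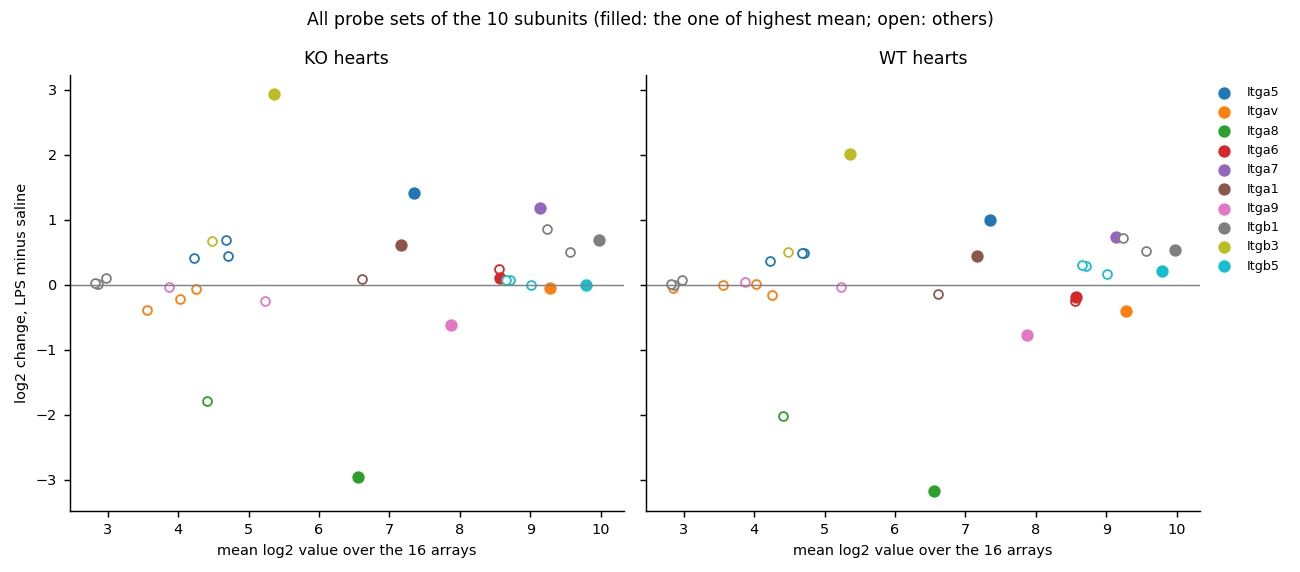
Log2 change, LPS minus saline (vertical axis), of every probe set of the 10 subunits against its mean log2 value over the 16 arrays (horizontal axis), in KO hearts (left) and WT hearts (right). Filled points are the probe sets used and open points the other 21. Both Itga8 points lie well under 0 and both Itgb3 points above it.

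No integrin of the set was called between the genotypes. After saline, limma called 0 of the 10 between KO and WT hearts, beside 0.0055% of all genes, and 0 of the 10 had an unadjusted p under 0.05, beside 3.48% of all genes. The log2 differences ran from -0.20 for Itga8 to 0.10 for Itgb1. After LPS limma called 0 of the 10, beside 0.0055% of all genes, and 2 had an unadjusted p under 0.05, beside 7.56% of all genes. KO and WT arrays of the same treatment overlapped for every subunit. Over all genes tested, 3.89% had no such overlap after saline and 2.26% after LPS.

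The 2 subunits with an unadjusted p under 0.05 after LPS were Itga7 and Itgb3. Itga7 averaged 9.86 ± 0.17 in KO and 9.38 ± 0.24 in WT hearts after LPS (SD, n = 4 each), a difference of 0.48 with a 95% interval of 0.22 to 0.75 (limma adjusted p = 0.594). Itgb3 averaged 7.02 ± 0.89 in KO and 6.18 ± 0.85 in WT hearts, a difference of 0.84 with an interval of 0.02 to 1.66 (limma adjusted p = 0.659), and of 0.43 without WT LPS array 4. KO LPS array 2 was the highest of its group for Itgb3, at 8.04, so leaving that array out would narrow the difference too. Itga8 differed by 0.01, with an interval of -0.52 to 0.54.

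The LPS responses themselves did not differ between genotypes by limma's test for any of the 10 (0 called, as for 0% of all genes, and 2 at an unadjusted p under 0.05, beside 4.47% of all genes). The widest differences, KO minus WT, were 0.92 for Itgb3 (95% interval -0.24 to 2.07), 0.44 for Itga7 (0.06 to 0.83), 0.42 for Itga5 (-0.43 to 1.26) and 0.35 for Itgav (0.01 to 0.69). The smallest adjusted p was 0.959. With intervals of this width the arrays do not show that the genotypes respond alike.

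Other integrins on the array included both rises and falls. Of 14 measured, 4 rose and 2 fell in KO hearts, where 26.1% of all genes were called, and 2 rose and 2 fell in WT hearts, where 20.9% were, with medians of 0.02 and -0.01 beside -0.02 and -0.00 over all genes. Without WT saline arrays 1 and 4, 3 rose and 2 fell in KO hearts and 2 rose and 1 fell in WT hearts. With those arrays left out, 4191 of 18193 genes were called in KO and 2061 in WT hearts. Itga2, Itga10, Itgae, Itgal, Itgax, Itgb4 and Itgb8 had means under the median over all probe sets in every group. Background therefore bears on the counts and medians of these 14, and the lack of a call does not show a stable level. The leukocyte pair Itgam and Itgb2, which form the complement receptor of neutrophils and macrophages, rose most. Itgam read 4.97 to 6.34 after LPS against 3.44 to 3.71 after saline in KO hearts, and 5.65 to 6.23 against 3.37 to 3.55 in WT hearts, with rises of 2.38 ± 0.22 and 2.47 ± 0.22. Its saline values lay under the median over all probe sets, so background bears on the sizes of its rises. Itgb2 rose by 1.23 ± 0.21 in KO and 1.60 ± 0.21 in WT hearts. Itgb6, a partner of αv best known from epithelia, fell (-1.99 ± 0.34 in KO and -1.29 ± 0.34 in WT hearts). It read 4.60 to 5.86 after LPS against 7.15 to 7.67 after saline in KO hearts and 5.13 to 7.04 against 7.17 to 7.55 in WT hearts. Itga4, of leukocytes, fell too (-0.63 ± 0.13 and -0.43 ± 0.13). It read 4.02 to 4.32 after LPS against 4.65 to 4.98 after saline in KO hearts. In WT hearts Itga4 read 4.11 to 4.69 against 4.61 to 5.04, ranges that overlap. These values lie about the median over all probe sets of 4.64, so background bears on the sizes. Itga3, a laminin receptor chain, rose in KO hearts by 0.91 ± 0.17 and had a change of 0.45 ± 0.17 in WT hearts (limma adjusted p = 0.0799).

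Matrix ligands of these receptors moved both ways, more of them down than up. Of 19 measured, 3 rose and 5 fell in KO hearts, where 11.4% of all genes were called higher and 14.7% lower. In WT hearts 3 rose and 7 fell, beside 9.28% and 11.6% of all genes. The medians were -0.31 in KO and -0.53 in WT hearts, beside -0.02 and -0.00 over all genes. Without WT LPS array 4, 9 were called lower in KO and 11 in WT hearts, with medians of -0.31 and -0.57. The share of all genes called in that fit is not given here, so these counts cannot be set against it. Without WT saline arrays 1 and 4 only 3 fell and 1 rose in WT hearts, where 2061 of 18193 genes were called. Vtn, the vitronectin bound by αv and α8 receptors, fell (-2.04 ± 0.42 in KO and -1.71 ± 0.42 in WT hearts). Of the laminin chains measured, Lama2, of the muscle basement membrane, fell in both genotypes (-1.28 ± 0.16 and -1.06 ± 0.16), as did Lamb2 (-0.89 ± 0.21 and -0.88 ± 0.21). Lamb1 fell in WT hearts (-0.62 ± 0.17) and was not called in KO hearts (-0.46 ± 0.17, limma adjusted p = 0.0557). Lama4, Lama5 and Lamc1 were not called in either. In WT LPS array 4 Lama2 read 9.05 and Vtn 7.20, nearer to the saline arrays than the other LPS arrays were. Postn, periostin, fell as well (-1.01 ± 0.24 and -1.35 ± 0.24). Basement membrane collagen, a ligand of α1β1, went the other way, Col4a1 rising by 1.43 ± 0.23 in KO and 0.77 ± 0.23 in WT hearts and Col4a2 by 1.12 ± 0.12 and 0.63 ± 0.12. Fn1, fibronectin, the ligand of α5β1, fell (-0.73 ± 0.15 and -0.46 ± 0.15). Npnt, nephronectin, the ligand best known for α8β1, read 3.83 to 4.46 after LPS against 4.31 to 4.74 after saline in KO hearts and 4.19 to 4.50 against 4.24 to 4.54 in WT hearts. It was not called (limma adjusted p = 0.0847 and 0.766), at a level about that of the median over all probe sets.

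Inside the cell, adhesion partners moved both ways. Of 19 measured, 6 rose and 4 fell in KO hearts, where 11.4% of all genes were called higher and 14.7% lower. In WT hearts 3 rose and 5 fell, beside 9.28% and 11.6% of all genes. The medians were 0.01 in KO and -0.01 in WT hearts, beside -0.02 and -0.00 over all genes. Without WT saline arrays 1 and 4, 1 rose and 2 fell in WT hearts, where 2061 of 18193 genes were called. Itgb1bp2, melusin, a muscle protein that binds the β1 tail, fell (-0.85 ± 0.13 in KO and -1.04 ± 0.13 in WT hearts). It read 10.31 to 10.50 after LPS against 11.13 to 11.30 after saline in KO hearts, and at most 10.82 after LPS against 11.26 to 11.38 after saline in WT hearts, with no overlap. Lims1, the adaptor PINCH that binds integrin-linked kinase, fell (-0.93 ± 0.11 and -0.90 ± 0.11). Fermt3, the kindlin of blood cells, rose by 1.22 ± 0.18 and 1.19 ± 0.18, and Actn1, an actin crosslinker, rose by 1.27 ± 0.29 in KO hearts and had a change of 0.72 ± 0.29 in WT hearts (limma adjusted p = 0.0896). Tln1 (a talin), Vcl (vinculin) and Ilk (integrin-linked kinase) were not called in either genotype. No gene of these 3 lists was called between KO and WT hearts or in the difference of the responses.

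**Figure D5:**
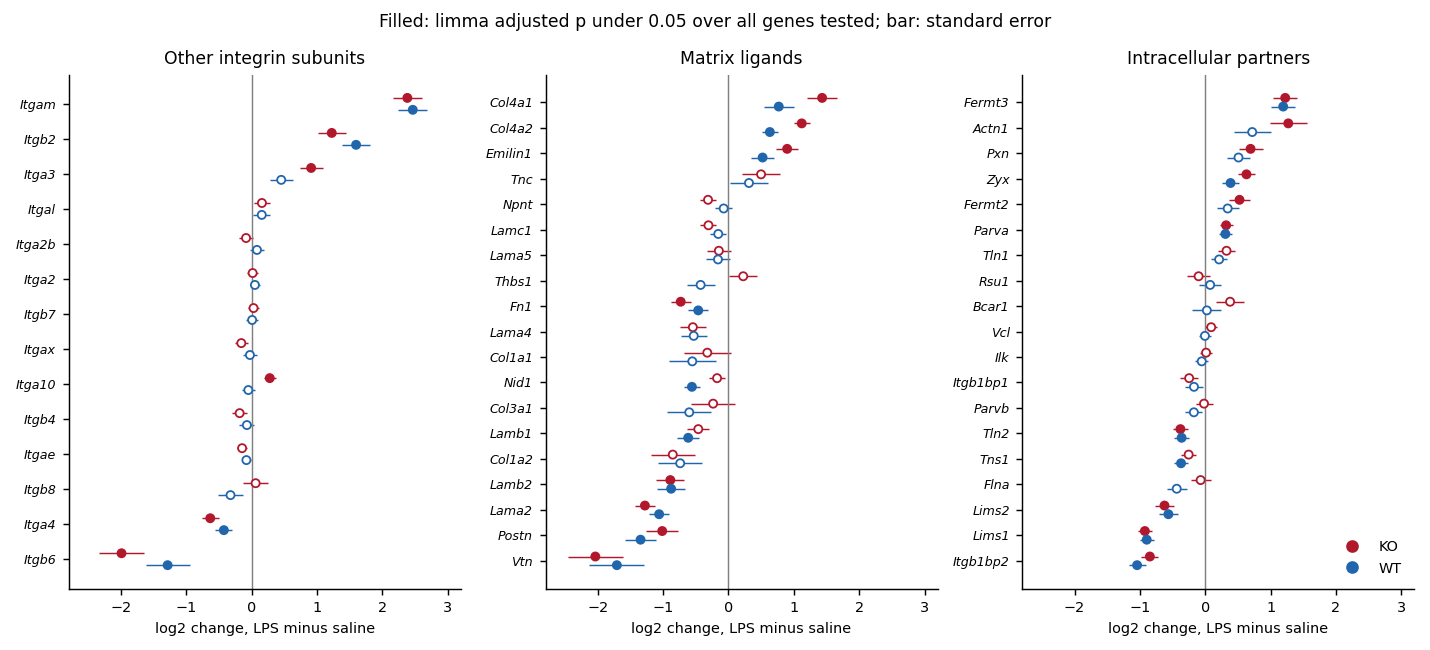
Log2 change, LPS minus saline (horizontal axis), of 14 other integrin subunits, 19 matrix ligands and 19 intracellular partners in KO (red) and WT (blue) hearts, with standard errors as bars. Filled points were called by limma at an adjusted p under 0.05. Itgam at 2.38 and 2.47 and Itgb6 at -1.99 and -1.29 lie at the ends of the left panel, and Col4a1 and Vtn at the ends of the middle one.

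The genes whose values over the 16 arrays lay closest to those of Itga8 were Penk, Col14a1, Ttll1, Cytl1 and Mtfp1. Likeness was the root mean square difference of log2 values after each gene's own mean was taken off, and it was 0.34 for Penk and 0.36, 0.40, 0.41 and 0.43 for the others, where Itga8 itself had an SD of 1.62 over the arrays. The LPS and saline groups lie far apart in Itga8, so the measure picks genes with a change of like size. Penk, the opioid peptide precursor proenkephalin, had log2 changes of -3.16 ± 0.22 in KO and -3.05 ± 0.22 in WT hearts. Col14a1, a fibril-associated collagen, had -3.07 ± 0.31 and -2.77 ± 0.31, and reached 5.80 in WT LPS array 4 against 3.62 to 4.46 in the other WT LPS arrays. Itga8 was likewise highest of its group in that array, at 5.66.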

How the data were processed

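RNA of 16 mouse ventricular samples was measured on Affymetrix arrays, 1 array per sample. Per the submitters' processing notes the deposited log2 values were made with RMA, of a version not given in the sources used here. The number of arrays limits the precision. The labels number 4 replicates a group without saying that each is 1 animal, so p-values measure the spread between these samples, which may be partly technical. Of 45101 probe sets, 64 were controls, 34945 carried 1 symbol, 932 several and 9160 none, and 34741 of the single-symbol sets matched the reference gene table. One probe set per gene (highest mean) left 18193 genes. limma 3.58.1 in R 4.3.3 fitted 1 mean per group to all 16 arrays (12 residual degrees of freedom, intensity trend), with Benjamini-Hochberg adjustment over all genes. Genes at an adjusted p under 0.05 were called, and errors are standard errors unless marked SD. On simulated data for LPS against saline in WT hearts (18193 genes), 100 genes were changed at each size. Of the changes of 1 log2 unit 89% were recovered and of those of 2 units 100%, with false calls of 4.55%. In the data 3798 genes were called, and the adjustment depends on that number, so these shares need not carry over.

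The members, lists and alternatives were chosen with earlier results of these data known. Named were all members, up to 4 called genes with the largest LPS changes per list, Npnt, Itgb1bp2, Itgam, Itgb2 and Itga2b, 5 genes closest to Itga8, and the first 3 markers of a cell type. Itga4, the laminin genes other than Lama2, Col4a2, Fn1, Pdgfrb, Cspg4, Tln1, Vcl and Ilk fall outside that rule and were chosen after their values were seen. The same holds for the other integrins named for their low signal. The transcript of the deleted receptor is left out of the report.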

Additional observations from a re-analysis of the deposited data

Results flagged for a closer look

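A pair of values stood far from the other arrays of their group, by Dixon's criterion for 4 samples. Itga9 in KO saline array 1 was 8.33, against 8.12 to 8.14 in the other KO saline arrays. Itgb5 in KO saline array 2 was 9.54, against 9.75 to 9.78. Over 40 groups of values examined, chance alone flags about 1 in 20, and 2 were flagged. The report's comparisons use both values as deposited.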

How the results depend on the processing

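In KO hearts the count of called subunits for LPS against saline stayed at 6 to 7 under every alternative. In WT hearts, where 7 were called, the mean of each gene's probe sets gave 4, leaving out WT saline arrays 1 and 4 gave 4, array weights gave 8, and leaving out 1 array at a time gave 5 to 7. The genotype comparisons and the difference of responses stayed at 0 under all alternatives. The 7 calls among the other probe sets became 4 with genes above the median over probe sets only, 11 with array weights and 5 to 11 when 1 array was left out. With the probe set of largest variance, 2 WT changes turned sign, Itgav to 0.007 (limma adjusted p = 0.989) and Itga1 to -0.14 (0.786), because another probe set was then read. Groups share replicate numbers, but of 24 same-numbered pairs only 3 had deviations correlated above 0.1 (-0.27 to 0.33), so the numbers were not taken to pair samples. With the replicate number as a block, limma called 7 subunits in KO and 7 in WT hearts, 6 of the other probe sets and 0 in the genotype comparisons. Subunit changes under the settings that keep all arrays or leave out WT saline arrays 1 and 4 numbered 440. Of these, 427 kept their side of the threshold, 9 lost and 2 gained a call, and the 2 named above reversed. The sign changed in 15 of the 440, counting the 2 reversed. Of 800 subunit changes with 1 array left out, 11 lost and 1 gained a call. Fitting only the groups compared cannot give the difference of responses, and the choice of probe set does not apply to the other probe sets. Centring the arrays shifted the median LPS change by 0.02. Signal over background limits Itgb3 after saline and Itga8 after LPS.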
